A study of Mus musculus with 4 samples.

Results

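A set of 566 accessible regions was held by the peak lists of 3 of the 4 libraries of mouse CD8+ T cells and had no peak in the list of the unstimulated phenelzine-treated cells. They were chosen by presence alone. The peaks of the 4 lists on chromosomes 1 to 19 and X were merged wherever they shared at least 1 bp, which gave 15237 regions. Those with a peak in the stimulated phenelzine, stimulated untreated and unstimulated untreated lists and none in the unstimulated phenelzine list were kept, 3.71% of all regions. Presence in all 4 lists therefore chose the members, and presence and peak strength are given below as descriptions without a test.

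The libraries were made by ATAC-seq, in which the transposase Tn5 cuts and tags DNA that is not covered by nucleosomes. The cells were CD8+ lymphocytes of BALB/c mice, and the series title calls them tumour-infiltrating. The 4 conditions were unstimulated cells with phenelzine, stimulated cells with phenelzine, stimulated untreated cells and unstimulated untreated cells, with 1 library each and no replicates. Stimulated cells received PMA, a phorbol ester, together with ionomycin for 2 h. PMA activates protein kinase C and ionomycin raises cell calcium, so the mixture bypasses the T cell receptor. Phenelzine inhibits monoamine oxidases and also the histone demethylase LSD1. The sources used here do not give the number of mice or cultures behind a library, the tumour, or the dose and duration of phenelzine. With 1 library per condition, nothing below has a replicate check, and a difference between conditions cannot be told apart from a difference between libraries.

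Active promoters and enhancers are kept free of nucleosomes by transcription factors and remodelling complexes, and short Tn5 fragments pile up there. A peak caller lists a place once its pileup exceeds the local background by a set margin. Absence from a list therefore means that this margin was not reached, not that the DNA was closed. LSD1 removes methyl groups from lysine 4 of histone H3 and works with the CoREST proteins and the deacetylases HDAC1 and HDAC2. In T cells, promoters of housekeeping genes are open in the resting state, while many enhancers open after activation.

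The promoters of 6 genes are shown, overlapped by some of the strongest members or, in 1 case, by a member at an inhibitor gene of NF-kB. They are a selection. The promoters of Ifrd2, Ndufs5 and Dctn3, whose members were also among the 10 of highest rank, were left out. Each stretch shown is the 250 bases before the annotated start site, read 5′ to 3′ on the strand of the gene. The source is RefSeq with the mouse build GRCm38.p6. Capitals mark matches, on either strand, to the 11 motifs listed further on.
Scap (chr9:110333038-110333287, plus strand): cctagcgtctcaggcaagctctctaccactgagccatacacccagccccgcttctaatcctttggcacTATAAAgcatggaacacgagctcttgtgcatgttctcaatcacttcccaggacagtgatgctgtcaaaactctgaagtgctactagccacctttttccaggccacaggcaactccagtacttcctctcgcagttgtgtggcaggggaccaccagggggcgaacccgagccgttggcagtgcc
Cdan1 (chr2:120731518-120731767, minus strand): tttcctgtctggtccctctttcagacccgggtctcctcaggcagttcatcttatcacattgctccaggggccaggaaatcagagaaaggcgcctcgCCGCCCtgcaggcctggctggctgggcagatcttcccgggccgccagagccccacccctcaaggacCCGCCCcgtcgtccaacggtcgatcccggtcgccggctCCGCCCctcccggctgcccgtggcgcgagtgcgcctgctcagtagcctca
Nup93 (chr8:94214314-94214563, plus strand): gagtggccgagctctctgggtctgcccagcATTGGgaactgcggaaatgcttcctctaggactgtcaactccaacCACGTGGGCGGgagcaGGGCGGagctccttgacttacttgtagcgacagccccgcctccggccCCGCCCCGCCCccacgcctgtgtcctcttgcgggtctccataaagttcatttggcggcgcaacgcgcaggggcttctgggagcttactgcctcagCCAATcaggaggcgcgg
Map2k1 (chr9:64253606-64253855, minus strand): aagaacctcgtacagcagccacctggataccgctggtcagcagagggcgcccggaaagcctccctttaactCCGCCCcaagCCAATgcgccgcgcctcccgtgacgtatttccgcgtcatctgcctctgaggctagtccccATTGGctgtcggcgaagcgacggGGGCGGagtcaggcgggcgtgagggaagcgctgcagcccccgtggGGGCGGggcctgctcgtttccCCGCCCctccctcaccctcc
Orai1 (chr5:123014824-123015073, plus strand): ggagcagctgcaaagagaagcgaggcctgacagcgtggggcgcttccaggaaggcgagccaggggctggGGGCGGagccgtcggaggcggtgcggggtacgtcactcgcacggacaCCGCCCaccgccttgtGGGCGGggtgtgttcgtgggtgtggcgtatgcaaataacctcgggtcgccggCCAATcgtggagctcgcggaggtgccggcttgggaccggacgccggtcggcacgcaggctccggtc
Nfkbie (chr17:45555450-45555699, plus strand): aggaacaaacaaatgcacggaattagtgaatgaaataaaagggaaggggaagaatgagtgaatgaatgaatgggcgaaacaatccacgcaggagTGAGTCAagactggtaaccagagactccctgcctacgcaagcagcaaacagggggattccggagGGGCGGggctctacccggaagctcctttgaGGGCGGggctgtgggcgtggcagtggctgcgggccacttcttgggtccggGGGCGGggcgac
The member at Orai1 covered 195 of the 250 bases shown, that at Nup93 193, that at Map2k1 184 and that at Nfkbie 122. The member at Cdan1 covered 96 of them. At Scap the member covered the last 34 bases and ran on past the start site. The Scap stretch held a single match, to the TBP motif, which lay outside the 34 bases that the member covered. The AP-1 match of the Nfkbie stretch also lay outside its member. The stretches of Map2k1 and Nup93 held several matches to the SP/KLF and NF-Y motifs.

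The deposited lists held 7938 peaks for unstimulated phenelzine, 9331 for stimulated phenelzine, 10414 for stimulated untreated and 6525 for unstimulated untreated cells. Each peak carries the authors' −log10 q, minus the log10 of the peak's adjusted p-value, so that a higher value is a stronger peak, and a fold enrichment over local background. Both were used only within a list, and a percentile is the peak's rank by −log10 q within its list, with ties averaged, as a percent of the list's peaks. Total reads are not in the lists, so depth was described by the background coverage that the lists imply. It was a pileup of 0.471, 0.489, 0.493 and 0.392 in the same order. Both the number of peaks and this background were lowest in unstimulated untreated cells and next lowest in unstimulated phenelzine cells. Of the T cell marker genes looked at, the CD8 genes Cd8a and Cd8b1 and the general T cell gene Cd2 had no region in any list within 20 kb. Cd247, Cd3d and Cd3g had at least 1 region in every list. Cd3e, Cd5 and Lck had regions in some lists only.

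The unstimulated phenelzine list lacked 566 of the 4651 regions held by the other 3 lists, which is 12.2% (95% interval 11.2 to 13.1). The corresponding share was 8.14% (362 of 4447) for the stimulated phenelzine list, 4.24% (181 of 4266) for the stimulated untreated list and 18.8% (944 of 5029) for the unstimulated untreated list. The order of these shares followed the number of peaks, the shorter lists lacking more. When each list was limited to its 6519 peaks of highest −log10 q, the shares were 11.2%, 12.3%, 10.4% and 11.0% in the same order, and the intervals of the unstimulated phenelzine share (10.2 to 12.3) and the others overlapped. Of the 410 regions missing only from the unstimulated phenelzine list under this limit, 282 overlapped the reported members. The contribution of list length and depth to the 566 was not tested further.

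**Figure D1:**
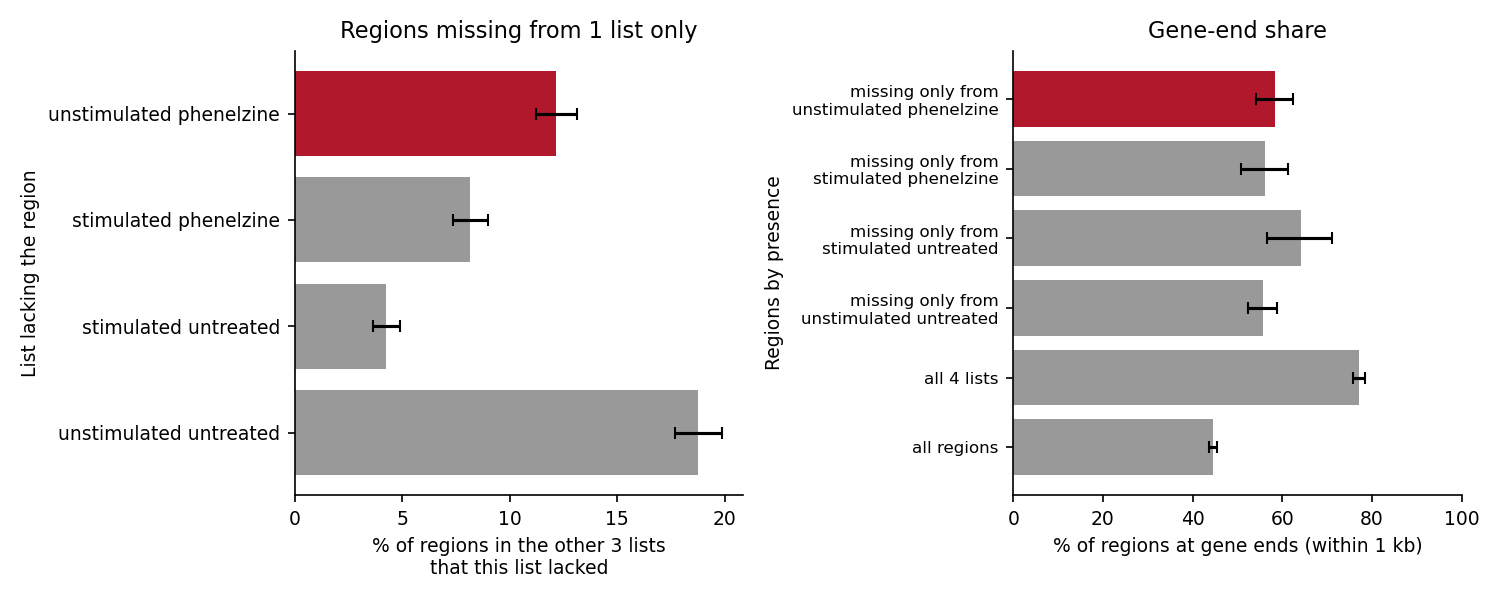
The left panel plots, for each list, the percent of regions in the other 3 lists that it lacked, and the right panel the percent of regions within 1 kb of a gene end by presence; bars are shares and whiskers exact 95% intervals. The unstimulated phenelzine list lacked 12.2%, and its missing regions lay at gene ends in 58.3%, between the 77.1% of regions held by all 4 lists and the 44.5% of all regions.

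Peaks of the members were of middling to low rank in the lists that held them. In the stimulated phenelzine list the median −log10 q of the 566 members was 2.53 (95% interval 2.40 to 2.61), at percentile 45.8 of that list. It was 2.81 (2.71 to 3.0), at percentile 47.3, in the stimulated untreated list and 2.44 (2.35 to 2.51), at percentile 35.4, in the unstimulated untreated list. Regions held by all 4 lists had medians of 3.94, 4.78 and 3.59 in these lists, at percentiles 72.6, 76.0 and 63.9. The middle of the members thus ranked lower than the middle of the shared regions in each list. So did the other regions missing from a single list. In those missing only from the unstimulated untreated list the median percentiles were 43.0, 44.3 and 46.8 in unstimulated phenelzine, stimulated phenelzine and stimulated untreated cells. In those missing only from the stimulated phenelzine list they were 41.8, 52.8 and 39.9 in unstimulated phenelzine, stimulated untreated and unstimulated untreated cells. In those missing only from the stimulated untreated list they were 39.7, 49.1 and 41.4 in unstimulated phenelzine, stimulated phenelzine and unstimulated untreated cells.

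The spread among members was wide. All 3 peaks lay in the upper 50% of their lists for 73 members (12.9%), against 2067 of the 4085 shared regions (50.6%). For 155 members (27.4%) all 3 peaks lay in the lower 50%. The highest −log10 q of a member was 9.36 in stimulated phenelzine, 12.9 in stimulated untreated and 6.62 in unstimulated untreated cells. The list in which a member ranked highest was stimulated untreated for 228 members, stimulated phenelzine for 207 and unstimulated untreated for 131. Members had a median width of 196.5 bp, with a range of 86 to 784 bp, against 277 bp for shared regions. The median width was 201, 176 and 201 bp for regions missing only from the stimulated phenelzine, stimulated untreated and unstimulated untreated lists. In 565 of 566 members each holding list had a single peak.

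**Figure D2:**
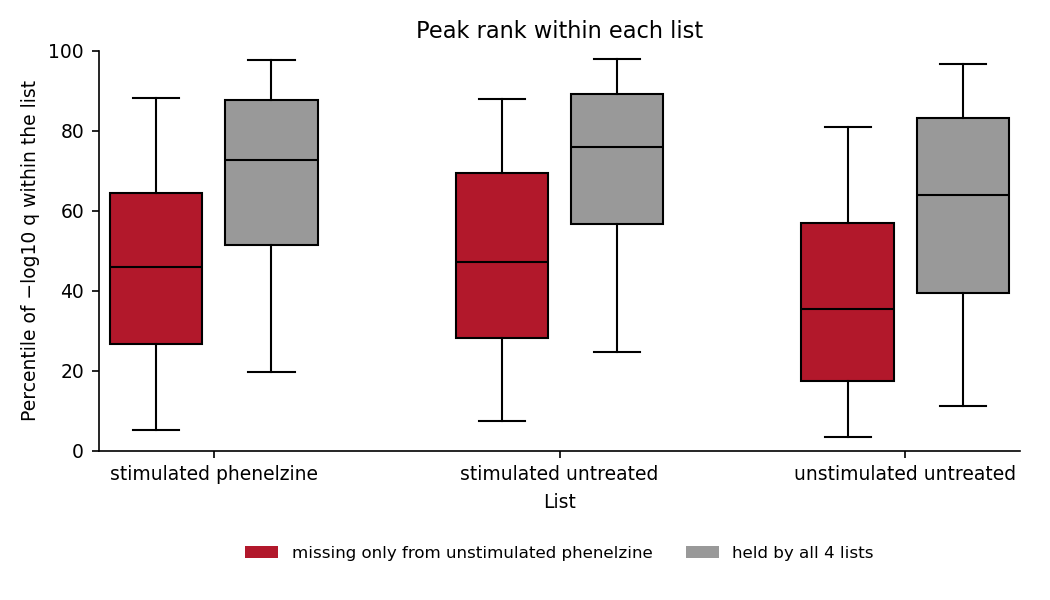
Percentile of −log10 q within the list for members (red) and for regions held by all 4 lists (grey); boxes are quartiles with the median, whiskers the 5th and 95th percentiles. Median percentiles were 45.8, 47.3 and 35.4 for members and 72.6, 76.0 and 63.9 for shared regions.

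Few members had an unstimulated phenelzine peak close by. No member had an unstimulated phenelzine peak closer than 261 bp. Such a peak lay within 500 bp of 12 members (2.12%), within 1000 bp of 25 and within 20 kb of 196 (34.6%), and the median distance was 34581.5 bp. The closest were at Pcif1 on chromosome 2 (261 bp), Immt on chromosome 6 (298 bp) and Eed on chromosome 7 (316 bp). On the other side of the rule, the unstimulated phenelzine peak shared 2 bp with other peaks at Pet117, 17 bp at Med31 and 20 bp at Echdc3, and these regions counted as held by all 4 lists. The lowest −log10 q with which an unstimulated phenelzine peak kept a region out of the set was 1.04, at Lin37 and Xirp1, followed by 1.05 at Pts, while the lowest in that list as a whole was 1.01.

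Position relative to genes was not used by the rule. A gene end was taken as the window reaching 1 kb to each side of the first or last base of any of the 21631 protein-coding genes in the mouse gene table. Members lay there in 330 of 566 cases, 58.3% (54.1 to 62.4). The shares were 56.1% (50.8 to 61.3) for regions missing only from the stimulated phenelzine list, 64.1% (56.6 to 71.1) for those missing only from the stimulated untreated list and 55.6% (52.4 to 58.8) for those missing only from the unstimulated untreated list. These intervals overlapped that of the members. Regions of all 4 lists lay at gene ends in 77.1% (75.8 to 78.4). No test was made between these sets, because regions of 1 library are not replicates.

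Of the other members, 120 (21.2%) lay inside a gene body away from its ends and 116 (20.5%) between genes. Members at gene ends had the highest medians in each list. Their median −log10 q was 2.81, 3.24 and 2.61 in stimulated phenelzine, stimulated untreated and unstimulated untreated cells. It was 2.26, 2.63 and 2.27 for members in gene bodies and 2.05, 2.21 and 2.15 for members between genes.

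Start sites with a strand were available for 17274 of the protein-coding genes. Of the 560 members on chromosomes with such sites, 282 (50.4%) had their centre within 500 bp of a start site. Of these, 218 were centred upstream and 64 at or downstream of the start, with a median offset of −44.5 bp. The 100 bp just upstream of the start site held 161 members. The promoter window, from 250 bases before to 50 after the start, was overlapped by 272 of 560 members (48.6%, 44.4 to 52.8), and 28 of these 272 (10.3%, 6.95 to 14.5) overlapped promoters on both strands. For regions of all 4 lists these shares were 69.0% and 14.2% (12.9 to 15.5). The other regions missing from a single list were close to the members in promoter share. It was 46.3%, 52.5% and 48.5% for those missing only from the stimulated phenelzine, stimulated untreated and unstimulated untreated lists. Their shares on both strands were 9.88%, 5.32% and 8.91%.

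**Figure D3:**
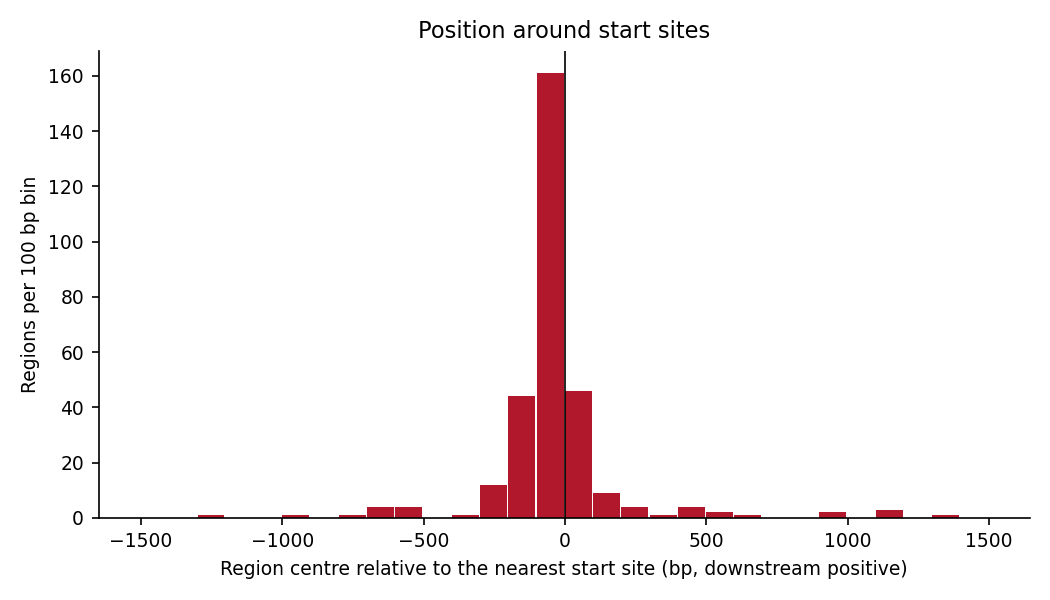
Number of members per 100 bp bin by the distance in bp of their centre from the nearest annotated start site. The bin from 100 bp upstream to the start site holds 161 members, the bins on either side 44 and 46.

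The 10 members with the highest rank in all 3 holding lists were, with 1 exception, at gene ends. The strongest lay at the start of Scap, which encodes the escort protein of the SREBP sterol regulators, on chromosome 9 from 110333254 to 110333359 (mm10). Its −log10 q was 7.39 in stimulated phenelzine, 6.88 in stimulated untreated and 5.44 in unstimulated untreated cells, with fold enrichments of 7.36, 7.05 and 6.50. These peaks lay at percentile 87.2 or above in each holding list, and the nearest unstimulated phenelzine peak was 28018 bp away. The Scap locus had no other region in any list.

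Cdan1, which encodes codanin-1, a binding partner of the histone chaperone ASF1, had a member on chromosome 2 from 120731498 to 120731613. Its −log10 q was 4.93 in stimulated phenelzine, 7.28 in stimulated untreated and 5.25 in unstimulated untreated cells. Nup93, a scaffold gene of the nuclear pore, had a member on chromosome 8 from 94214371 to 94214595, whose −log10 q was 4.67, 5.67 and 4.84 in the same order. At both genes the member was the only region of unstimulated untreated cells within 20 kb of the gene, and the unstimulated phenelzine list had none.

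Among the 10 were also members at Orai1 and Map2k1. Orai1 encodes the pore of the calcium channel that opens when the calcium stores of a T cell are emptied. Its member lay on chromosome 5 from 123014874 to 123015068. It had −log10 q 4.24 in stimulated phenelzine, 5.30 in stimulated untreated and 4.37 in unstimulated untreated cells. It was the only region of the Orai1 locus, so the locus had 0 regions in unstimulated phenelzine cells and 1 in each other list.

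Map2k1 encodes MEK1, the kinase that activates ERK. Its member, on chromosome 9 from 64253568 to 64253789, had −log10 q 7.53 in stimulated phenelzine, 4.91 in stimulated untreated and 4.66 in unstimulated untreated cells. The stimulated phenelzine peak was the strongest in rank of the 3. The locus was not empty in unstimulated phenelzine cells, where another region lay within 20 kb of the gene. The smaller locus of Uchl4, a ubiquitin hydrolase gene inside that span, held the member and had 0 regions in unstimulated phenelzine cells.

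The remaining members among the 10 were at genes of general cell functions. Ndufs5, a gene of respiratory complex I, had −log10 q 6.79 in stimulated phenelzine, 9.22 in stimulated untreated and 4.27 in unstimulated untreated cells. The member inside the kinase gene Dyrk1b, near its start and within 1 kb of Fbl, which encodes the ribosomal RNA methyltransferase fibrillarin, had 7.45, 4.83 and 5.82, and an unstimulated phenelzine peak lay 406 bp away. The member by Hyal3 and Ifrd2 had 5.61, 7.46 and 4.46. The member by the dynactin subunit gene Dctn3 and by Arid3c had 5.14, 4.27 and 4.69. The exception to the gene ends was inside Polk, a gene of a DNA polymerase that copies past damage, with 5.24, 4.84 and 4.06.

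**Figure D4:**
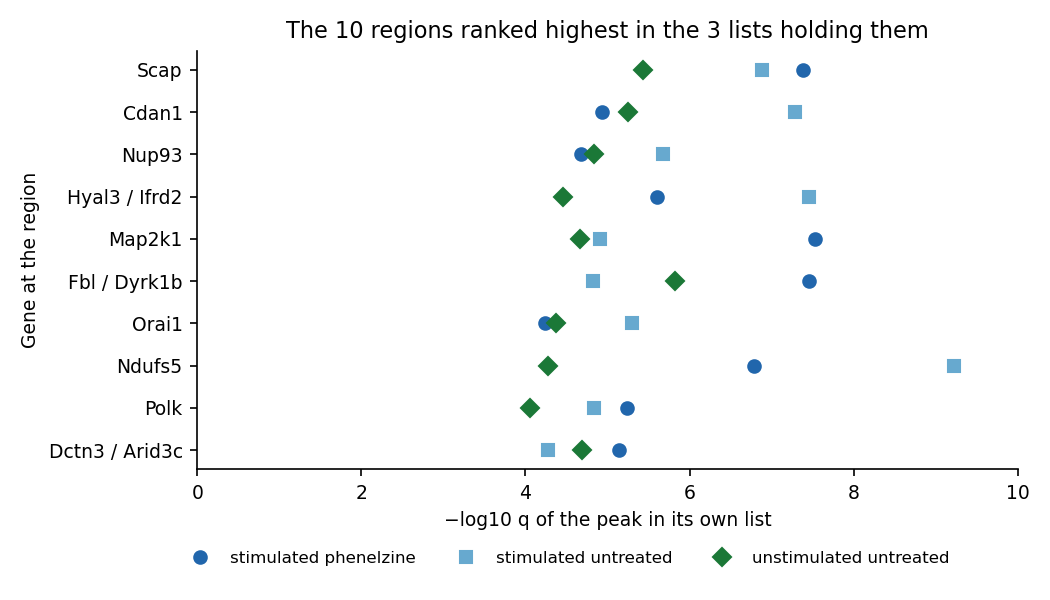
−log10 q of the peak in each of the 3 holding lists for the 10 members of highest rank, by gene; no peak was present in the unstimulated phenelzine list. Values run from 4.06 at Polk in unstimulated untreated cells to 9.22 at Ndufs5 in stimulated untreated cells.

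Members at gene ends touched 399 protein-coding genes, which is 1.84% of the 21631 and 5.29% of the 7545 with a gene-end region in any list. Of the 399, 369 had no region of the unstimulated phenelzine list at either end and 30 did. Within the locus, defined as the gene body and 20 kb on either side, 992 genes (4.59%) had a member, 950 of them 1 and 42 of them 2. Neighbouring genes often shared a member, so genes in these counts are not independent. Loci with a region in each of the other 3 lists and none in the unstimulated phenelzine list numbered 530 of 7732 (6.85%), of which 418 contained a member. The same count was 288 of 7490 loci for the stimulated phenelzine list, 155 of 7357 for the stimulated untreated list and 995 of 8197 for the unstimulated untreated list.

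The counts of list genes below stand beside the shares over all 21631 protein-coding genes. These were 4.59% with a member in the locus, or 992 genes, and 1.84% with a member at a gene end. Only 12572 genes had any region in the locus, so among those the share with a member was higher than 4.59%. Any region was in the locus of 20 of 22 immediate early and AP-1 genes and 19 of 20 NF-kB and NFAT genes. The count was 14 of 19 for naive, memory and quiescence genes. The 4.59% is therefore a low background for these lists. Genes of the immediate early and AP-1 list are transcribed within minutes of T cell activation. Of its 22 genes 4 had a member in the locus and 1 at a gene end. The gene-end member was at Ier2, a gene of a small nuclear protein, with −log10 q 1.56 in stimulated phenelzine, 1.71 in stimulated untreated and 4.12 in unstimulated untreated cells. Egr2, a zinc-finger factor induced by antigen receptor signals, had a member over its annotated start on chromosome 10 from 67537383 to 67537855, and its values were 2.05, 2.49 and 3.08. This was its only region, so the Egr2 locus had 0 regions in unstimulated phenelzine cells and 1 in each other list. The member 1667 bp from Myc, a driver of growth, had 1.91, 3.82 and 2.13, and that 17991 bp from the stress factor gene Atf3 had 1.56, 2.04 and 5.54.

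In the NF-kB and NFAT list 3 of 20 genes had a member in the locus, and 1 at a gene end. Nfkbie encodes an inhibitor that holds NF-kB in the cytoplasm, and its member at the promoter shown above lay on chromosome 17 from 45555578 to 45555741. Its −log10 q was 3.85 in stimulated phenelzine, 3.62 in stimulated untreated and 3.04 in unstimulated untreated cells. The Nfkbie locus had 1 region in unstimulated phenelzine cells, against 4, 4 and 1 in those lists. Nfkb2, which encodes the p100 precursor of p52, had a member over an annotated start inside the gene span, with 3.91, 6.93 and 1.17. Its unstimulated untreated peak was among the weakest of that list. Ppp3ca, the gene of a calcineurin catalytic subunit, had a member inside the gene with 2.60, 3.98 and 1.65.

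Genes that mark resting, naive and memory T cells had 3 members in the loci of 19 genes and 0 at gene ends. The growth-arrest gene Btg2 had one 13840 bp away, with −log10 q 4.04 in stimulated phenelzine, 2.80 in stimulated untreated and 2.87 in unstimulated untreated cells. Slfn2, a quiescence gene of T cells, had one 7459 bp away with 5.83, 3.41 and 2.85, and its locus had 0 regions in unstimulated phenelzine cells. Klf2, a quiescence factor gene, had one 7933 bp away with 1.46, 1.98 and 2.47. All 3 lay between genes.

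Of 19 genes for the T cell receptor, its signalling and CD8, 1 had a member in its locus. It was Lck, the kinase that phosphorylates the receptor. The same member, on chromosome 4 from 129542655 to 129542843, lay 9 bp from the gene span of Hdac1, which encodes the deacetylase of the LSD1 complexes. Its −log10 q was 7.96 in stimulated phenelzine, 4.72 in stimulated untreated and 2.69 in unstimulated untreated cells. The Hdac1 locus had 0 regions in unstimulated phenelzine cells, against 2 in stimulated phenelzine, 1 in stimulated untreated and 1 in unstimulated untreated cells. Hdac1 was the only one of 15 genes of the LSD1 complexes and monoamine oxidases with a member.

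Of 16 cytokine and chemokine genes, Ccl3 and Ccl4 shared 1 member between genes, with −log10 q 2.28 in stimulated phenelzine, 4.08 in stimulated untreated and 1.82 in unstimulated untreated cells. Cd274, which encodes PD-L1, was the 1 gene of 12 among inhibitory receptors and exhaustion genes. Its member lay within 1 kb of the Cd274 span and overlapped an annotated start of the neighbouring gene Plgrkt, with 3.07, 2.47 and 1.45. Of 13 lineage factor genes only Ikzf3, an Ikaros family gene, had one in its locus, with 1.59, 2.15 and 1.82. That member lay outside the Ikzf3 span, at the start of the neighbouring gene Zpbp2. No member lay in the loci of the 12 effector transcription factor genes, the 12 cytotoxic genes or the 12 activation receptors, of which 6, 4 and 6 had a region in any list. Among markers of other cells the count was 0 of 5 for B cells, 1 of 6 for myeloid cells, 0 of 4 for CD4 and regulatory T cells, 0 of 3 for NK cells, 0 of 4 for epithelium and 0 of 4 for stroma and endothelium. The myeloid gene was Spi1, through a member at the start of its neighbour Slc39a13.

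Among genes of chromatin enzymes, members were at the gene ends of 2 of 42 histone-modifying enzyme genes and in the loci of 4. Kmt2d, a methyltransferase gene for lysine 4 of histone H3, had −log10 q 1.76 in stimulated phenelzine, 2.72 in stimulated untreated and 4.92 in unstimulated untreated cells, at a member that also lay at the start of Prkag1. Eed, a Polycomb subunit gene, had 2.24, 1.93 and 1.40, with an unstimulated phenelzine peak 316 bp away. Members were in the loci of Kdm6b (2.29, 3.43 and 2.85) and Setd1a (1.88, 2.07 and 1.68), the second of which lay at the neighbouring genes Fbxl19 and Orai3. In the remodelling list 3 of 21 genes had a member in the locus, among them Smarca2, a catalytic subunit gene of the BAF complex, at its promoter with 6.48, 2.50 and 4.35. Arid1b, a BAF subunit gene, had one inside the gene with 4.76, 3.02 and 2.70, while the member in the Smarcb1 locus, with 1.78, 1.76 and 1.84, ended 3 bp before Derl3. For RNA polymerase II and Mediator, the count was 2 of 46, namely Med27 (5.44, 3.24 and 1.99) and Med11 (1.61, 5.01 and 2.70).

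Families of general cell functions, defined by the start of the gene symbol, had members at gene ends in small numbers. The counts were 4 of 84 cytosolic ribosomal protein genes, 2 of 78 mitochondrial ribosomal protein genes, 4 of 92 oxidative phosphorylation genes and 5 of 73 genes of mitochondrial import and carriers. They were 2 of 69 for splicing factors, 2 of 71 for translation factors and 3 of 52 for helicases with Ddx or Dhx symbols. For tRNA synthetases and chaperones they were 2 of 18 and 3 of 82. Among genes of trafficking they were 5 of 65 for VPS and sorting nexin genes and 1 of 69 for Rab genes. Proteasome genes and ubiquitin-conjugating enzyme genes had 0 of 51 and 0 of 37. Among genes of growth and division they were 2 of 71 for cyclin and cyclin-dependent kinase symbols and 1 of 41 for DNA replication. For histone genes the count was 4 of 100, for Zfp zinc-finger genes 8 of 397 and for Wdr genes 2 of 65. Of 14 housekeeping genes 3 had one, or 3 of the 11 with a gene-end region in any list. In the families named by symbol between 15 and 173 genes had a gene-end region in any list. The share over all genes was 1.84%, and 5.29% over genes with such a region, and most of these counts are too small to read against it.

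Up to 4 genes of a family are given next, those with a member at a gene end first and then by the member's rank. Some members in loci therefore ranked higher than members that are given. Each has its −log10 q in stimulated phenelzine, stimulated untreated and unstimulated untreated cells in that order. Among ribosomal protein genes, Rplp0, which encodes a stalk protein and is also in the housekeeping list, had 2.55, 8.66 and 4.46, and its locus had no other region. Rpl12 had 2.38, 5.01 and 2.81 and Rpl35 had 1.96, 4.98 and 2.48. Rps27 shared a member with the Rab gene Rab13, with 3.02, 5.37 and 4.12. By percentile within its own list, the stimulated untreated peak ranked highest in all 4. Among translation factors, Eif3l had 2.57, 2.68 and 3.07 and the exon junction helicase gene Eif4a3 had 4.36, 2.52 and 3.28. The higher-ranked of 2 members in the Eif5a locus lay at the start of Gps2 and within 1 kb of an end of Neurl4. It had 5.60, 4.44 and 3.16. The member 17567 bp from Eif2b2 had 5.63, 2.21 and 1.83. By percentile, the stimulated phenelzine peak ranked highest in 3 of these 4 cases.

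Genes of mitochondria were mostly represented by members at their own start sites. Beside Ndufs5, the complex I gene Ndufv1 had 4.50, 3.36 and 2.39, Ndufs3 had 3.40, 1.48 and 2.09 and the assembly factor gene Ndufaf3 had 2.37, 1.63 and 3.07. Sdha, the catalytic subunit gene of succinate dehydrogenase and a member of the housekeeping list, had 5.75, 9.78 and 3.13. Mrpl10, of the mitochondrial ribosome, had 2.69, 3.28 and 2.67. Among carriers, Slc25a30 had 4.34, 3.62 and 1.96, Slc25a11 had 4.06, 3.59 and 1.85 and Slc25a17 had 1.58, 1.64 and 3.08. Tomm34 had 3.10, 3.73 and 2.18. Iars2 and Fars2, which encode mitochondrial tRNA synthetases, had 9.08, 2.73 and 2.27 and 2.93, 2.04 and 3.91. The Iars2 peak in stimulated phenelzine cells was at percentile 97.8 of its list. The Cars2 locus shared a member with that of Rab20, at the start of Naxd, with 3.64, 3.38 and 6.08.

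Among splicing factors, Srsf9 had 6.55, 3.92 and 3.10 and Prpf4b had 3.37, 1.69 and 2.21. The member in the Hnrnpab locus lay at Nhp2 and had 2.07, 7.24 and 3.85, and that over a start of Hnrnpf had 1.69, 4.25 and 4.62. Of RNA helicase genes, Dhx29 shared a member with Mtrex at 4.09, 3.87 and 3.45, Dhx16 had 2.83, 3.98 and 3.02, and Ddx21 and its neighbour Ddx50 shared one with 2.01, 6.34 and 2.35. Cdk7, the kinase gene of TFIIH, shared a locus member with Mrps36, with 4.53, 5.92 and 3.64, and neither locus had another region. The member in the Ccnl2 locus, at Aurkaip1, had 3.52, 3.33 and 4.92, and that 15568 bp from Cdk17 had 2.06, 2.28 and 2.92. For DNA replication, Rfc5, a clamp loader gene, had 3.0, 2.70 and 2.51. The members in the loci of the helicase genes Mcm8, Mcm5 and Mcm2 lay at the neighbouring genes Crls1, Hmox1 and Tpra1, with 2.51, 2.96 and 5.73 for Mcm8, 4.55, 4.30 and 2.14 for Mcm5 and 4.24, 3.12 and 2.03 for Mcm2. None of the MCM members was therefore at an MCM gene end.

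Of zinc-finger genes, Zfp524 shared a member with Fiz1 at 3.71, 5.48 and 4.04. Zfp346 had 3.99, 3.57 and 4.30, Zfp746 had 3.52, 2.98 and 3.86 and Zfp1 had 4.02, 2.26 and 5.39. In the last 3 the unstimulated untreated peak had the highest percentile within its list. Trafficking genes included Vps33b with 2.03, 4.32 and 3.50, Snx5 with 2.27, 3.05 and 2.08, Vps8 with 1.75, 5.22 and 5.95 and Vps13d with 3.37, 2.87 and 1.59. The member in the Rab27a locus lay at Rsl24d1 and had 5.56, 2.98 and 3.29. Of chaperone genes, Dnajc4 had 3.0, 4.63 and 4.03, Hspa4l had 2.34, 2.71 and 2.46 and Dnajb6 had 2.75, 4.38 and 2.34. Hsp90ab1 was counted through the Nfkbie member. The proteasome gene Psmc3 shared the member at Slc39a13 with Spi1, with 3.08, 1.92 and 2.71, and Ube2g2 was counted through a member at Sumo3 with 5.15, 2.68 and 2.56. The Wdr54 locus held a member at Dctn1 with 3.03, 5.45 and 4.87, and the Wdr24 locus a member at Stub1 and Rhbdl1 with 3.23, 3.12 and 3.07. Of WD-repeat genes with a member at their own ends, Wdr61 had 3.29, 5.35 and 2.21 and Wdr7 had 2.69, 1.99 and 3.04.

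Histone genes stand in dense clusters, and the 23 with a member in the locus shared 5 distinct members. H2ac10 and H3c8 shared a member with 4.23, 3.21 and 1.92, although the H3c8 locus had 6 regions in unstimulated phenelzine cells, against 4 in stimulated phenelzine, 9 in stimulated untreated and 3 in unstimulated untreated cells. H3c3 had 3.36, 5.94 and 2.35 and H3c13 had 3.27, 3.82 and 2.02. Unstimulated phenelzine peaks lay 911 bp from the H3c3 member and 886 bp from the H3c13 member.

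Of the 42 genes with 2 members in the locus, 6 were taken by the lowest percentile of their best member over the 3 lists. They were Dyrk1b, Mid1, Mrpl35 and its neighbour Immt, and Acap1 and its neighbour 2810408A11Rik. The last 2 tied with their neighbours Eif5a and Gps2, which have the same best member. At Mrpl35 and Immt, a pair of neighbouring genes of the mitochondrial ribosome and inner membrane, each gene had a member at its own start. The Immt member had −log10 q 3.05 in stimulated phenelzine, 8.38 in stimulated untreated and 4.70 in unstimulated untreated cells. The Mrpl35 member had 3.90, 2.51 and 3.54. The members farthest from any protein-coding gene lay 885843 bp from Gsdmc, 512280 bp from Gm51425 and 411244 bp from Usp25, with −log10 q of 1.57 to 3.61. The widest, 784 bp, lay inside the adhesion gene Cadm1 with 2.14, 1.40 and 1.75. The next widest, 715 bp, lay at the starts of Tada3, a gene of histone acetyltransferase complexes, and Arpc4, with 3.14, 2.66 and 2.80.

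Sequence was not used by the rule either. Members overlapped 329 promoter windows of 301 genes. Their median GC content was 61.7% (95% interval 61.0 to 62.3) and their median number of CpG dinucleotides 24, against 62.7% and 24 for the 3473 windows overlapped by regions of all 4 lists and 56.7% and 13 for all 21045 windows. The members' promoters were thus as CpG-rich in the median as those of shared regions.

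The motifs were searched on both strands of the 300-base windows, and none contains another. The NRF1 and ZNF143 motifs had 10 and 11 letters. The others were CCGGAAGT (ETS), GGGCGG (SP/KLF), TGACGTCA (CREB), CCAAT (NF-Y), AAGATGGC (YY1), TGANTCA (AP-1), CACGTG (E-box), TATAAA (TBP) and TGTGGT (RUNX). The ETS motif was in 45 of 329 member promoters (13.7%, 10.2 to 17.9), in 12.5% of promoters of shared regions and in 5.20% of all. SP/KLF was in 70.2% (65.0 to 75.1), 74.9% and 46.7%. YY1 was in 6.08%, 6.22% and 3.07%, and TBP in 5.78%, 4.66% and 12.7%. Matches to AP-1, the factor family induced by PMA, were in 4.86% (2.81 to 7.78) of member promoters, 3.71% of shared ones and 7.04% of all. RUNX was in 10.3%, 10.8% and 14.7%, the E-box in 11.6%, 12% and 7.91%, and CREB in 3.34%, 4.75% and 2.26%.

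NRF1 and NF-Y were the motifs whose intervals for member promoters and for promoters of shared regions did not overlap. NRF1 was in 4 of 329 member promoters (1.22%, 0.332 to 3.08), in 163 of 3473 promoters of shared regions (4.69%, 4.01 to 5.45) and in 1.34% of all. It was in 10 of 194 promoters (5.15%, 2.50 to 9.28) of regions missing only from the stimulated phenelzine list, 0 of 110 (upper limit 3.30%) of those missing only from the stimulated untreated list and 21 of 538 (3.90%, 2.43 to 5.91) of those missing only from the unstimulated untreated list. NF-Y was in 41.9% (36.6 to 47.5) of member promoters, 52.7% (51.1 to 54.4) of shared ones and 38.5% of all. The 3 other sets missing from 1 list had 35.1%, 35.5% and 45.9%, so a lower NF-Y share than in shared regions was common to the sets. ZNF143 was in 6 of 329 (1.82%, 0.672 to 3.93), 0.777% and 0.428%. These are matches of letters and do not show binding.

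**Figure D5:**
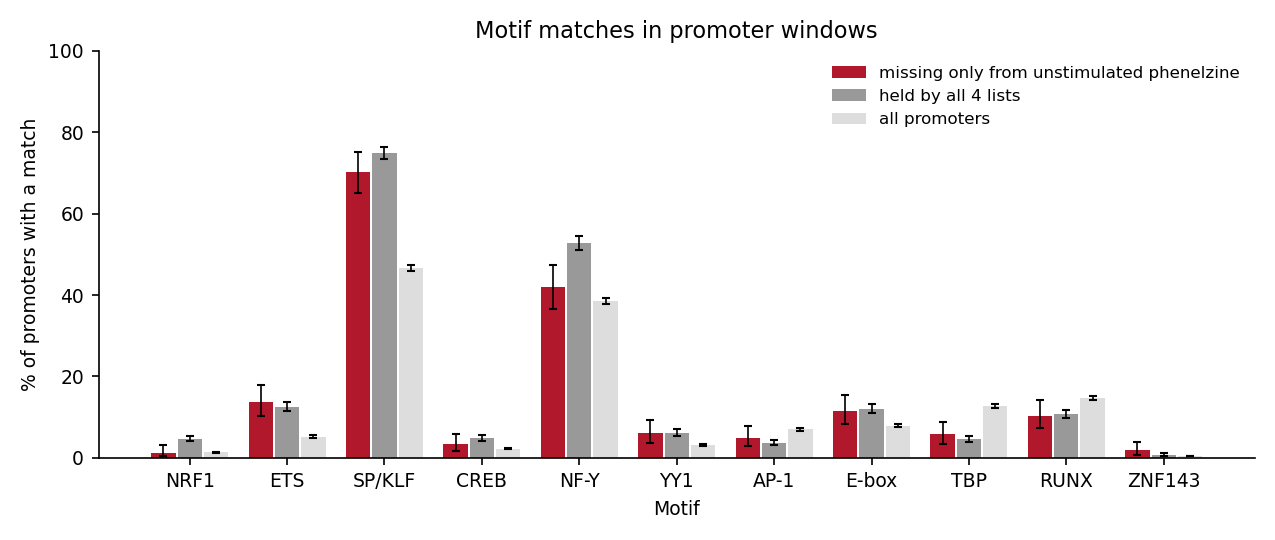
Percent of 300-base promoter windows with at least 1 match to each motif, for windows overlapped by members (red), by regions of all 4 lists (dark grey) and for all windows (light grey); whiskers are exact 95% intervals. ETS and SP/KLF matches were more frequent in both overlapped sets than in all windows, and the NRF1 share was 1.22% for members and 4.69% for shared regions.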

How the data were processed

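The submitters' processing notes name MACS2, HOMER, Picard, Bowtie2 2.2.5 and Trimmomatic 0.33, and the build mm10. The sources used here do not give their roles, parameters or other versions. The deposited data are 1 list of broad peaks per library. Per the file type, the deposited fold is a ratio of pileup to local background, and p-value and q-value are on the −log10 scale. The score deposited by the authors equals 10 times −log10 q, rounded down, in at least 99.98% of peaks of each list. These values were used only within a list. The peak names hold the tag less120, whose meaning is not spelled out; if it is a limit on fragment length, the lists describe short fragments.

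Peaks were merged with Python 3.11.15 and pandas 2.3.3. The 6 to 9 peaks per list on Y were set aside, and none of their 11 regions was missing only from the unstimulated phenelzine list. Medians have order-statistic and shares exact (Clopper-Pearson) 95% intervals, from scipy 1.17.1, which cover counting error only. Background coverage was computed for each list from its commonest combination of fold and −log10 p, with fold as (pileup + 1)/(background + 1). Merging was tested on simulated data. Genes and promoters are RefSeq's for GRCm38.p6; chromosome 18 was left out of the promoter shares. The gene table has no exons, so exons and introns are not separated.

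Named were the 10 members of highest lowest percentile and every listed gene with a member. Families had up to 4 genes each, those with a member at a gene end first. Loci with 2 members, the most distant and the widest members were also named. So were members next to the limits of the rule and loci without an unstimulated phenelzine region. Genes caught by the start of their symbol alone were not described. Some values of listed genes are not reported here. The members, 39 gene lists and motifs were chosen with earlier results of these data known.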

Additional observations from a re-analysis of the deposited data

How the results depend on the processing

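With 8 results and 11 other settings, 60 values were compared and 24 moved by more than their interval or by over 1.5 times. With −log10 q of at least 2 in all lists, the share at gene ends was 70.2% and the medians in stimulated phenelzine, stimulated untreated and unstimulated untreated cells were 3.15, 3.74 and 3.09. With at least 3 they were 80.2%, 4.27, 4.98 and 4.16. With at least 3 asked of the 3 holding lists only, 60 regions remained, with 81.7% at gene ends, 65 genes at gene ends, 28 list genes and medians of 3.93, 4.63 and 3.92. With lists of equal length the share at gene ends was 68.8% and the medians 3.08, 3.87 and 2.69. A gene-end window of 500 bp gave 54.1%, and a locus of 50 kb gave 228 list genes, against 151. A threshold on q raises the medians by construction; the cause of the other moves was not tested. The share of regions that the unstimulated phenelzine list lacked was recomputed under settings chosen after seeing the data. It was 15.6% with −log10 q of at least 2, 19.3% with at least 3 and 11.2% with equal lists. With at least 2, the stimulated phenelzine, stimulated untreated and unstimulated untreated lists lacked 10.2%, 5.19% and 16.9%. With at least 3 they lacked 13.2%, 6.0% and 23.9%, so the unstimulated untreated share stayed the highest. Of the regions missing only from the unstimulated phenelzine list under these settings, 258 of 550, 60 of 378 and 282 of 410 overlapped reported members. Merging over gaps of 100 bp gave 572 regions and asking for overlap of at least 50% of the shorter peak 547.

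No paired analysis was possible because each condition has a single library. Depth, replicate error and reads below the calling margin cannot be read from peak lists.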

Other observations

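Members also lay at genes that do not encode proteins. Of the 236 members away from protein-coding gene ends, 26 (11.0%, 95% interval 7.32 to 15.7) were within 1 kb of an end of such a gene, against 16.8% (14.4 to 19.3) of the corresponding regions of all 4 lists and 8.85% of all regions. Counting members at any position, 62 long non-coding RNA genes, 6 miRNA genes and 4 tRNA genes had one. The share over all such genes is not given here, so these counts cannot be read against a background. Many of these members lay at protein-coding gene ends and are counted there too. The genes named below were picked with their values in view. The tRNA genes n-TPagg7 and n-TPtgg8 shared a member on chromosome 7 from 98815312 to 98815469, whose −log10 q was 5.71 in stimulated phenelzine, 4.49 in stimulated untreated and 2.30 in unstimulated untreated cells. Mir8111 had one on chromosome 8 from 84004783 to 84004912, whose values were 3.14, 5.93 and 4.77. Mir191 shared its member with Ndufaf3, with 2.37, 1.63 and 3.07.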
